A study of Mus musculus with 9 samples.

Results

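The genes described here are those of the eukaryotic translation initiation factors, with the kinases and binding proteins that carry the same name stem. They were taken as every row of the gene table whose symbol begins with Eif and a digit, which gave 64 of 21352 genes. The RNA came from the mouse line HT-22, immortalized cells of hippocampal origin that the labels call neuronal, as 3 groups of 3 libraries. The groups were control cells labelled wild type, cells kept for 24 hours with homocysteine thiolactone (HTL) at 2 mM, and cells that first had betaine at 10 mM for 4 hours and then this HTL treatment. HTL, a cyclic thioester that cells form from homocysteine, reacts with lysine residues of proteins. Betaine serves cells as an osmolyte and as a source of methyl groups. The sources used here do not say what the control cells received. A group with betaine but without HTL was not analysed here, and betaine's own effect therefore cannot be told apart from its effect on HTL-treated cells.

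Translation initiation begins when eIF2 carries the initiator tRNA to the small ribosomal subunit, where eIF1 and eIF1A keep the complex open for scanning, eIF3 helps it assemble, and eIF5 drives GTP hydrolysis by eIF2 and the closed state at the start codon. The eIF4F complex, made of the cap-binding protein eIF4E, the scaffold eIF4G and the helicase eIF4A, brings the mRNA. Cells slow initiation at a pair of points. Kinases phosphorylate eIF2 alpha, which then blocks its exchange factor eIF2B, and 4E-binding proteins hold eIF4E until mTOR phosphorylates them. These data hold mRNA levels alone, so neither phosphorylation nor translation was measured.

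Levels are given in FPKM, the authors' deposited unit, in which a gene's fragments are divided by its length and by the depth of the library. Library totals recovered from the steps of low values ran from 33305472 to 39464509 reads. A filter on the mean of the 9 libraries (0.5 FPKM or more) left 53 of the 64 genes for testing. Each of these 53 had a mean of at least 1.95 FPKM in every group and at least 219 recovered reads in every library, so none was kept through a single group. The other 11 were 9 members of the Eif1ad cluster on chromosome 12 (Eif1ad2 to Eif1ad8, Eif1ad16 and Eif1ad19), Eif4a3l1 and Eif2c5, whose symbol follows an older naming of Argonaute genes. None of these 11 exceeded 0.15 FPKM or 11 recovered reads in a library. Of 8 neuronal markers 5 were listed. The neuronal nuclear gene Rbfox3 reached at most 0.0021 FPKM and the tau gene Mapt at most 0.016 FPKM in a library, while the tubulin gene Tubb3 had a mean of 9.52 FPKM. The 5 listed summed to 9.33 to 10.6 FPKM in control, 10.3 to 11.8 FPKM in HTL and 10.1 to 10.7 FPKM in betaine plus HTL libraries. Summed levels of 5 fibroblast markers, led by Vim, were 1235 to 1269 FPKM in control, 901 to 924 FPKM in HTL and 864 to 889.9 FPKM in betaine plus HTL libraries. Vim had a mean of 883 FPKM, Col1a1 of 121 FPKM and Pdgfrb of 7.63 FPKM. Dcn (0.43 FPKM) and Lum (0.0014 FPKM) stayed under a mean of 0.5 FPKM. For 4 microglial markers, led by Tmem119, the sums were 7.95 to 9.20, 8.17 to 8.82 and 5.38 to 6.32 FPKM, and Aif1 and Csf1r stayed under 0.19 FPKM in each library. For the 3 astrocyte markers listed the sums were 0.43 to 0.57, 0.46 to 0.60 and 0.54 to 0.63 FPKM, with Gfap at most 0.028 FPKM. The part of these markers in the results was not tested. In bulk RNA, fewer cells of a type and less RNA per cell cannot be told apart.

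The 53 genes ranged over more than 2 orders of magnitude in level. The helicase gene Eif4a1 was highest, with a mean of 811 FPKM over the 9 libraries and rank 53 among all 21352 genes, followed by Eif5a at 710.1 FPKM and Eif1 at 615 FPKM. Eif4g3, one of the eIF4G scaffold genes, was lowest at 2.31 FPKM. Most eIF3 subunit genes lay between 86.5 FPKM (Eif3k) and 344 FPKM (Eif3h), with the eIF3j genes below them. The gene of the binding protein Eif4ebp1 stood at 304 FPKM, and that of its target Eif4e at 15.8 FPKM. Such differences between genes depend on the length used, inferred as 981 bases for Eif4ebp1 and 10231 bases for Eif4e. Recovered reads of a library ran from 9073 to 13191 for Eif4ebp1 and from 4966 to 6621 for Eif4e. The 64 genes together held 1.73% to 1.76% of the summed FPKM in control libraries, 1.71% to 1.72% in HTL and 1.77% to 1.78% in betaine plus HTL libraries.

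**Figure D1:**
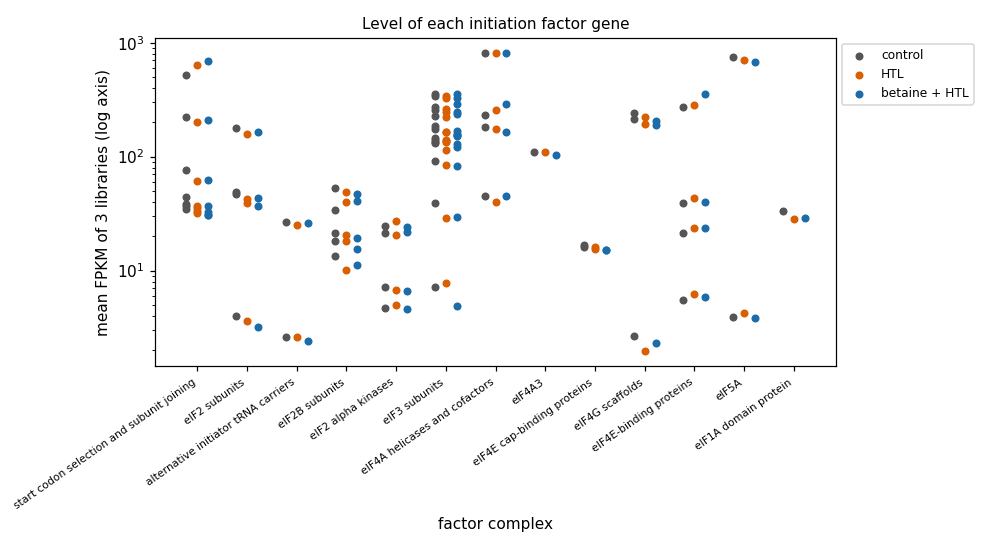
Mean FPKM of each tested initiation factor gene (points, 3 libraries each, log axis) by factor complex and group. Most complexes span a wide range of levels while the 3 groups of a gene lie close together, with Eif4a1, Eif5a and Eif1 at the top and Eif4g3 and Eif2d at the bottom.

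**Figure D2:**
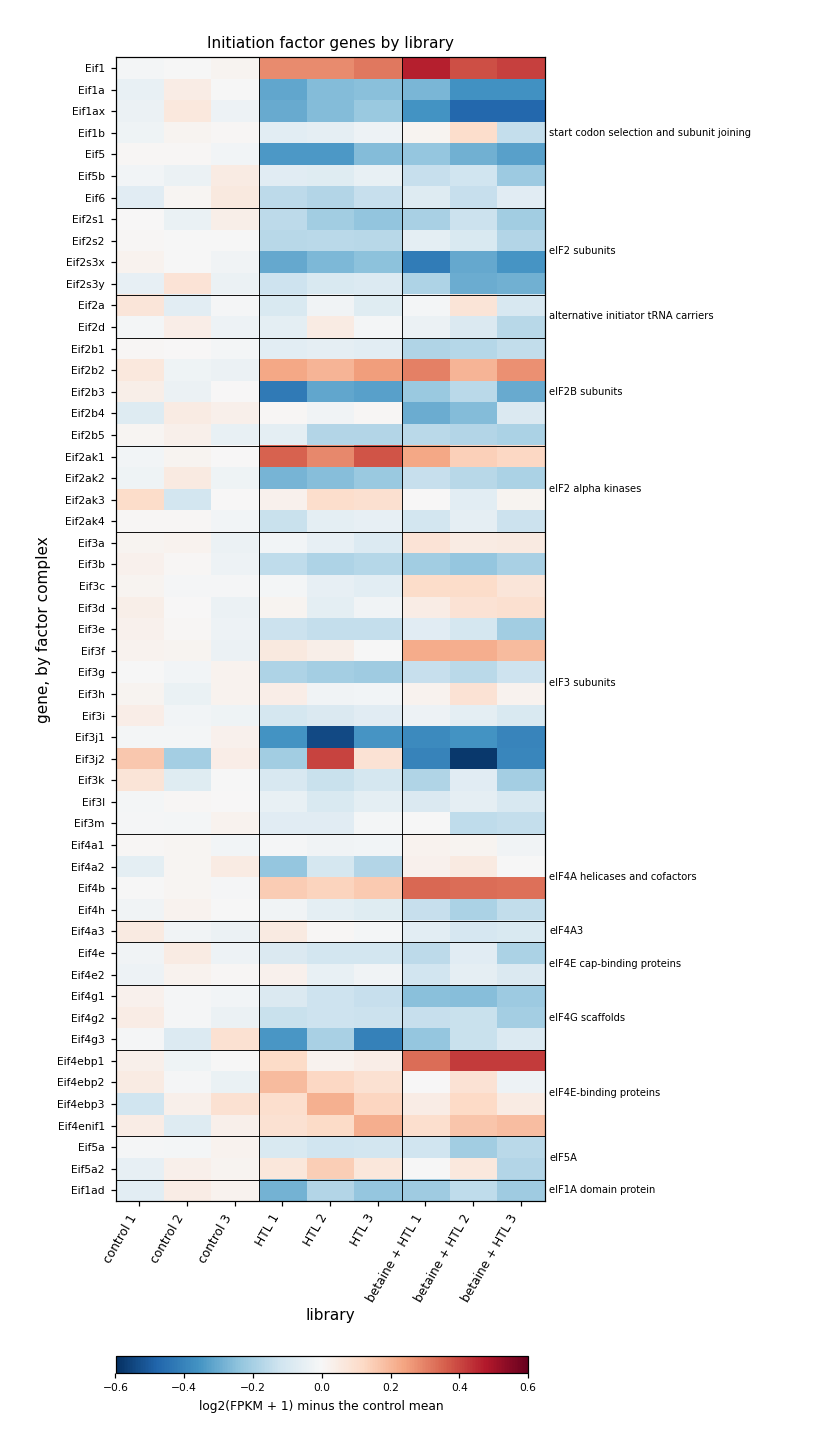
Each tested gene (rows, by complex) in each of the 9 libraries (columns), as log2(FPKM + 1) minus the gene's control mean; red is higher and blue lower. Eif1, Eif4b, Eif2b2 and Eif2ak1 are red in every HTL and betaine plus HTL library, while most eIF2, Eif1a, Eif1ax and Eif5 cells are blue.

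Promoter windows of RefSeq (GRCm38.p6, 250 bases before to 50 after each annotated start) were found for 50 of the 64 genes. The E-box CACGTG, which MYC and related factors bind, was in a window of 10 of these 50 genes (20%), against 8.09% of 27025 genes with a window. It reads the same on both strands. The C/EBP-ATF core TGATGNAA, searched on both strands, was in 4 (8%, against 4.51%), and the core of the interferon-stimulated response element, also on both strands, in 4 (8%, against 3.99%). Of the C/EBP-ATF matches 3 were in the untested near copies Eif1ad2, Eif1ad5 and Eif1ad6. Matches of different motifs did not overlap in these windows. The 10 genes with an E-box were Eif1b, Eif3a, Eif3f, Eif3k, Eif4a1, Eif4e, Eif4g1, Eif4h, Eif5a and Eif5a2. Eif4e and Eif4g1 each held a further E-box that is not shown. For Eif4e, Eif4g1 and Eif4a1, which encode eIF4F subunits, and for Eif3f, whose changes are described further on, a stretch is shown. The match is in capitals. The interferon core of the kinase gene Eif2ak2 lies 19 bases past its annotated start and is shown with these stretches. A match describes these letters only and was not tested as a site.
Eif4e, chr3:138527184-138527229, plus strand: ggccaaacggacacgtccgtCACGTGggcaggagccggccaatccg
Eif4g1, chr16:20672653-20672698, plus strand: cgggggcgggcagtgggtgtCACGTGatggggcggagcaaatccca
Eif4a1, chr11:69672587-69672632, minus strand: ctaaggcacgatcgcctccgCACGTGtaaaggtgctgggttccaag
Eif3f, chr7:108934327-108934372, plus strand: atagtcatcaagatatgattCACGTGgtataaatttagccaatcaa
Eif2ak2, chr17:78882543-78882574, minus strand: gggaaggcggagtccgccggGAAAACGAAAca

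The effect of the thiolactone is read from HTL against control. More initiation factor genes fell than rose. Of 53 tested, 24 fell, 7 rose and 22 did not pass the test (limma on log2(FPKM + 1), Benjamini-Hochberg adjustment over all 11012 genes tested, threshold 0.05). The share called, 58.5%, lay near the 60.3% of all genes tested. Among all genes 39.8% rose and 20.4% fell, against 13.2% and 45.3% of the initiation factor genes. Their median log2 fold change was -0.06, beside 0.07 for all genes tested. The changes were small, from -0.42 for Eif3j1 to 0.34 for Eif2ak1. For 38 of the 53 genes the control and HTL libraries held separate ranges, beside 67.2% of all genes. Under size factors 4 rose and 36 fell, so that 10% of the calls were rises instead of 22.6%. Under quantile normalization 8 rose and 22 fell, and 26.7% of the calls were rises. Over all genes, 66.1% of calls were rises as reported, 49.3% with size factors and 52.2% with quantile normalization.

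Among the genes of start codon selection and subunit joining, 4 of 7 fell and 1 rose. The one that rose was Eif1 (chromosome 11, 100319949 to 100322099, GRCm38), whose product guards the accuracy of start codon choice. It was at 512, 516 and 522 FPKM in the control libraries, 629, 629.8 and 644 FPKM in the HTL libraries and 715, 677 and 688 FPKM in the betaine plus HTL libraries. Every HTL library exceeded every control library, and every betaine plus HTL library exceeded both (log2 fold change 0.29 ± 0.03 SE, adjusted p = 2.77e-06 for HTL against control). Eif5, whose product makes eIF2 hydrolyse its GTP and which opposes eIF1 at the start codon, moved the other way. It was at 77.0, 77.1 and 75.8 FPKM in the control libraries, 60.1, 60.2 and 63.8 FPKM in the HTL libraries and 65.1, 62.6 and 61.0 FPKM in the betaine plus HTL libraries. Both treated groups lay below the control libraries (log2 fold change -0.32 ± 0.03 SE, adjusted p = 8.2e-06). The eIF1A genes, which work beside eIF1, fell too. Eif1ax, on the X chromosome, was at 43.2, 46.2 and 43.4 FPKM in the control libraries, 35.7, 36.7 and 37.8 FPKM in the HTL libraries and 34.3, 31.6 and 31.6 FPKM in the betaine plus HTL libraries (log2 fold change -0.26 ± 0.04 SE, adjusted p = 0.000174). Eif1a was at 37.5, 39.9 and 38.6 FPKM in the control libraries, 31.0, 32.1 and 32.4 FPKM in the HTL libraries and 31.8, 29.8 and 29.9 FPKM in the betaine plus HTL libraries (log2 fold change -0.27 ± 0.03 SE, adjusted p = 4.6e-05). For both genes the treated libraries lay below the control libraries. Eif1ax held 61.4% to 63.7% of the pair's recovered reads over the 9 libraries. Reads could have been shared between these genes, so their falls may not be separate results. The ribosomal subunit anti-association gene Eif6 fell from 223 ± 9.84 to 199.8 ± 2.43 FPKM (SD, n = 3 each). Eif1b, a close relative of Eif1, was at 36.9 and 35.6 FPKM (adjusted p = 0.403), and the subunit joining gene Eif5b at 34.7 and 33.2 FPKM (0.132). Under size factors alone Eif5b was called lower (0.00606).

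Of the 4 eIF2 subunit genes 3 fell in HTL cells. Eif2s1 encodes the alpha subunit that stress kinases phosphorylate (chromosome 12, 78862072 to 78887010, GRCm38). It was at 48.8, 47.4 and 49.98 FPKM in the control libraries, 43.6, 42.0 and 41.1 FPKM in the HTL libraries and 42.4, 44.5 and 42.1 FPKM in the betaine plus HTL libraries. The HTL libraries lay below the control libraries without overlap (log2 fold change -0.20 ± 0.03 SE, adjusted p = 0.000297), and the betaine plus HTL libraries overlapped those of HTL. The beta subunit gene Eif2s2 fell from 177 ± 0.51 to 158 ± 0.47 FPKM. The gamma subunit is encoded on both sex chromosomes. Eif2s3x was at 48.2, 47.4 and 46.7 FPKM in the control libraries, 38.1, 39.1 and 39.9 FPKM in the HTL libraries and 35.2, 38.1 and 36.9 FPKM in the betaine plus HTL libraries (log2 fold change -0.27 ± 0.03 SE, adjusted p = 2.83e-05). Its Y-linked copy Eif2s3y stood at 3.97 and 3.64 FPKM (adjusted p = 0.114). Under quantile normalization and under size factors Eif2s3y was called lower, with the lowest adjusted p at 0.00745. Reads of the pair could have been shared between copies. The alternative tRNA carrier genes Eif2a and Eif2d did not pass, at 26.4 and 25.3 FPKM and at 2.63 and 2.61 FPKM. Under size factors alone Eif2a was called lower (adjusted p = 0.0319).

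The eIF2 alpha kinase genes did not move together. Eif2ak1, which encodes the heme-regulated kinase HRI (chromosome 5, 143817792 to 143902717, GRCm38), had the largest rise of the 53 genes. It was at 21.0, 21.5 and 21.3 FPKM in the control libraries, 27.5, 26.2 and 27.9 FPKM in the HTL libraries and 25.2, 23.6 and 23.3 FPKM in the betaine plus HTL libraries. HTL libraries were highest, betaine plus HTL libraries intermediate and control libraries lowest, without overlap (log2 fold change 0.34 ± 0.04 SE, adjusted p = 1.2e-05 for HTL against control, log2 fold change -0.17 ± 0.04 SE, adjusted p = 0.00325 for betaine plus HTL against HTL). Eif2ak2, which encodes the double-stranded RNA kinase PKR and is known as an interferon-induced gene (its window held the interferon core printed with the E-boxes), went the opposite way. It was at 24.3, 25.7 and 24.3 FPKM in the control libraries, 20.2, 20.6 and 21.1 FPKM in the HTL libraries and 22.4, 21.9 and 21.6 FPKM in the betaine plus HTL libraries. The HTL libraries were lowest (log2 fold change -0.25 ± 0.03 SE, adjusted p = 5.26e-05). Their difference from the betaine plus HTL libraries missed the threshold (log2 fold change 0.09, adjusted p = 0.0573), but passed under quantile normalization, under size factors and without control replicate 2 (0.0484), with adjusted p from 0.0212 to 0.158 over 17 alternative settings. Eif2ak3, which encodes the endoplasmic reticulum kinase PERK, was at 4.68, 4.97 and 4.61 FPKM in control, HTL and betaine plus HTL cells and passed in no comparison. Eif2ak4, which encodes the amino acid sensor GCN2, was at 7.17, 6.74 and 6.65 FPKM. In HTL against control it missed the threshold (adjusted p = 0.103), but was called lower under quantile normalization and size factors (lowest 0.00362). Its difference between betaine plus HTL and control missed the threshold (adjusted p = 0.0522), but passed under both other scalings, without the trend, without HTL replicate 1 (0.0454) and without betaine plus HTL replicate 2 (0.0408), with the lowest adjusted p at 0.00281.

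The eIF2B subunit genes split as well. The catalytic core is made of the gamma and epsilon subunits, encoded by Eif2b3 and Eif2b5, and the other 3 subunits sense phosphorylated eIF2. Eif2b3 was at 13.6, 12.9 and 13.3 FPKM in the control libraries, 9.63, 10.5 and 10.4 FPKM in the HTL libraries and 11.2, 11.8 and 10.6 FPKM in the betaine plus HTL libraries. It fell in HTL cells (log2 fold change -0.35 ± 0.05 SE, adjusted p = 4.9e-05). Its rise from HTL to betaine plus HTL was called at an adjusted p of 0.0479, but was lost in 12 of 17 settings (adjusted p from 0.0211 to 0.166 over all of them), among them on leaving out any library but betaine plus HTL replicate 3 (0.0534 to 0.166). Eif2b5 fell from 53.3 ± 1.52 to 48.5 ± 2.36 FPKM. Eif2b2, of the beta subunit, was at 35.6, 33.4 and 33.3 FPKM in the control libraries, 40.2, 39.4 and 40.8 FPKM in the HTL libraries and 42.2, 39.4 and 41.5 FPKM in the betaine plus HTL libraries. It rose in HTL cells (log2 fold change 0.23 ± 0.04 SE, adjusted p = 0.000197) and did not pass between HTL and betaine plus HTL, where the libraries overlapped (adjusted p = 0.51). Eif2b4, of the delta subunit, was at 17.2, 18.9 and 18.6 FPKM in the control libraries, 18.3, 17.9 and 18.3 FPKM in the HTL libraries and 14.6, 15.0 and 17.1 FPKM in the betaine plus HTL libraries. Control and HTL libraries overlapped, and the betaine plus HTL libraries lay below both (log2 fold change -0.21 ± 0.05 SE, adjusted p = 0.00929 against HTL). Eif2b1, of the alpha subunit, was at 21.6 ± 0.17, 20.6 ± 0.077 and 19.1 ± 0.24 FPKM in the 3 groups, and as reported only its differences between betaine plus HTL and each other group passed (adjusted p = 0.00946 against HTL and 0.000211 against control, and 0.0704 for HTL against control). In HTL against control it was called lower in 3 of 17 settings, with no filter (0.0166), quantile normalization (0.00248) and size factors (0.00129).

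Of 14 eIF3 subunit genes 7 fell and none rose in HTL cells. Eif3b, of the core scaffold, went from 184 ± 3.69 to 163 ± 1.84 FPKM, Eif3g from 133 ± 1.61 to 115 ± 1.22 FPKM and Eif3e from 356 ± 7.13 to 324 ± 1.65 FPKM. Falls of Eif3i, Eif3k and Eif3l were at most 0.11 on the log2 scale and did not hold whichever library was left out. That of Eif3i was lost without control replicate 1 (adjusted p = 0.0576) or HTL replicate 1 (0.0507), that of Eif3l without control replicate 2 or 3 or HTL replicate 2 or 3 (0.0581 to 0.106), and that of Eif3k without control replicate 1 or 3 or any HTL replicate (0.0582 to 0.147). Eif3a, the largest subunit, and Eif3c, Eif3d, Eif3f, Eif3h and Eif3m did not pass. The scaling mattered here. Under size factors Eif3a, Eif3c, Eif3d and Eif3m were also called lower, and under quantile normalization the falls of Eif3e, Eif3i, Eif3k and Eif3l did not pass and Eif3f was called higher.

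The eIF3j subunit, loosely bound and placed at the mRNA entry of the small ribosomal subunit, is encoded by Eif3j1 and its near copy Eif3j2. Eif3j1 was at 38.5, 38.6 and 39.5 FPKM in the control libraries, 30.1, 26.4 and 30.2 FPKM in the HTL libraries and 29.6, 30.1 and 29.3 FPKM in the betaine plus HTL libraries (log2 fold change -0.42 ± 0.04 SE, adjusted p = 1.41e-05 for HTL against control). Eif3j2 was at 8.04, 6.03 and 7.32 FPKM in the control libraries, 5.99, 9.70 and 7.58 FPKM in the HTL libraries and 5.13, 4.41 and 5.16 FPKM in the betaine plus HTL libraries (log2 fold change -0.55 ± 0.13 SE, adjusted p = 0.00824 for betaine plus HTL against HTL). Eif3j1 lay lower in both treated groups than in control libraries, and Eif3j2 was lowest in betaine plus HTL libraries. In HTL replicate 2 the Eif3j1 level was the lowest and the Eif3j2 level the highest of all libraries. Eif3j2 held 26.9% of the pair's recovered reads there, against 12.8% to 20.1% in the other 8 libraries and each copy's level is uncertain. How reads were assigned to the copies was not tested. Scaled to the library total (RPM), reads of the pair summed to 108 to 113 RPM in control, 87.1 to 91.2 RPM in HTL and 83.1 to 83.7 RPM in betaine plus HTL libraries. These sums did not overlap between groups.

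**Figure D3:**
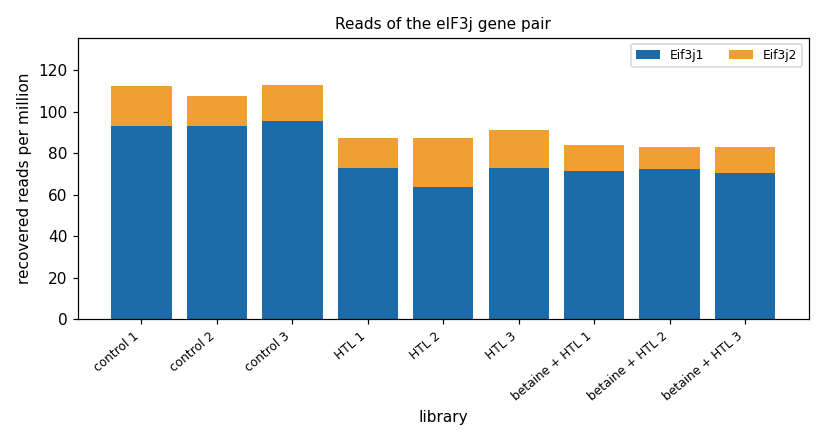
Recovered reads, scaled to the library total (RPM), of Eif3j1 (blue) and Eif3j2 (orange) stacked for each of the 9 libraries. The summed height falls from 108 to 113 in control to 87.1 to 91.2 in HTL libraries, while the orange share is largest in HTL replicate 2, at 26.9%.

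All 3 genes of the eIF4G family fell in HTL cells. Eif4g1, the main scaffold (chromosome 16, 20672720 to 20692883, GRCm38), was at 247, 242 and 240.2 FPKM in the control libraries, 229, 223 and 221 FPKM in the HTL libraries and 204, 204 and 209 FPKM in the betaine plus HTL libraries. The 3 groups stepped down without overlap (log2 fold change -0.12 ± 0.02 SE, adjusted p = 0.00133 for HTL against control, log2 fold change -0.13 ± 0.02 SE, adjusted p = 0.00198 for betaine plus HTL against HTL). Eif4g2, which encodes the cap-independent relative DAP5, went from 212 ± 5.85 to 194 ± 0.45 FPKM in HTL cells. Eif4g3, the least abundant scaffold gene, was at 2.64, 2.46 and 2.89 FPKM in the control libraries, 1.88, 2.20 and 1.77 FPKM in the HTL libraries and 2.12, 2.34 and 2.46 FPKM in the betaine plus HTL libraries (log2 fold change -0.32 ± 0.07 SE, adjusted p = 0.00229). Its HTL libraries lay below the control libraries. Eif4a1 was at 816, 818 and 804 FPKM in the control libraries, 808, 802 and 803 FPKM in the HTL libraries and 825, 823 and 801 FPKM in the betaine plus HTL libraries and passed in no comparison (log2 fold change -0.01, 0.02 and 0.01 for HTL against control, betaine plus HTL against HTL and betaine plus HTL against control). In HTL against control its sign depended on the scaling, with a call of 0.12 under quantile normalization and of -0.09 under size factors. Its less abundant relative Eif4a2 was at 42.8, 45.0 and 46.2 FPKM in the control libraries, 37.9, 41.5 and 39.4 FPKM in the HTL libraries and 45.5, 46.3 and 44.6 FPKM in the betaine plus HTL libraries. It fell in HTL cells (log2 fold change -0.17 ± 0.04 SE, adjusted p = 0.00217) and rose from HTL to betaine plus HTL (log2 fold change 0.20 ± 0.04 SE, adjusted p = 0.00207). Eif4b, whose product stimulates the helicase (chromosome 15, 102073773 to 102097173, GRCm38), rose in HTL against control and in betaine plus HTL against HTL. It was at 229, 231 and 228 FPKM in the control libraries, 255, 252 and 256 FPKM in the HTL libraries and 292, 289.7 and 289 FPKM in the betaine plus HTL libraries. The groups did not overlap (log2 fold change 0.15 ± 0.02 SE, adjusted p = 8.43e-05 for HTL against control, log2 fold change 0.19 ± 0.02 SE, adjusted p = 5.18e-05 for betaine plus HTL against HTL). Its partner in that role, Eif4h, was at 182 ± 2.87, 176 ± 3.33 and 163 ± 3.2 FPKM, and fell from HTL to betaine plus HTL (adjusted p = 0.00664). In HTL against control Eif4h did not pass (0.107), but was called lower under size factors (0.00181).

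The cap-binding gene Eif4e was at 16.5, 17.4 and 16.4 FPKM in the control libraries, 15.7, 15.5 and 15.4 FPKM in the HTL libraries and 14.9, 15.9 and 14.6 FPKM in the betaine plus HTL libraries. Its fall in HTL cells was called at an adjusted p of 0.0382, which was lost without control replicate 1 or 2 or any HTL replicate (0.0508 to 0.144, with 0.00247 to 0.144 over all settings). In betaine plus HTL against control Eif4e was lower in all 17 settings (log2 fold change -0.14, adjusted p = 0.00798). Betaine plus HTL against HTL did not pass (0.486). Of the 4 binding protein genes 3 rose in HTL cells, with small changes. Eif4ebp2 went from 39.4 ± 1.23 to 43.4 ± 1.53 FPKM (log2 fold change 0.14 ± 0.04 SE, adjusted p = 0.00915), Eif4enif1, which carries eIF4E into the nucleus, from 21.3 ± 1.02 to 23.6 ± 1.16 FPKM (0.0144), and Eif4ebp3 from 5.51 ± 0.49 to 6.20 ± 0.29 FPKM (0.0424). All of these calls were lost under size factors, and those of Eif4enif1 and Eif4ebp3 also under quantile normalization (highest adjusted p over the settings 0.22 for Eif4ebp2, 0.195 for Eif4enif1 and 0.286 for Eif4ebp3). The Eif4enif1 call was also lost without control replicate 2 (0.0648) or HTL replicate 3 (0.0663), and the Eif4ebp3 call without control replicate 1 or 2, HTL replicate 2 or 3 or betaine plus HTL replicate 1 (0.0511 to 0.176). Eif5a, which carries the modified residue hypusine and helps the ribosome at difficult peptide bonds, fell from 755 ± 8.88 to 700.3 ± 7.17 FPKM, and under quantile normalization it did not pass. Eif4a3, of the exon junction complex, was at 109 and 110.3 FPKM (adjusted p = 0.631), and Eif1ad fell from 33.3 ± 1.35 to 28.2 ± 1.06 FPKM.

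**Figure D4:**
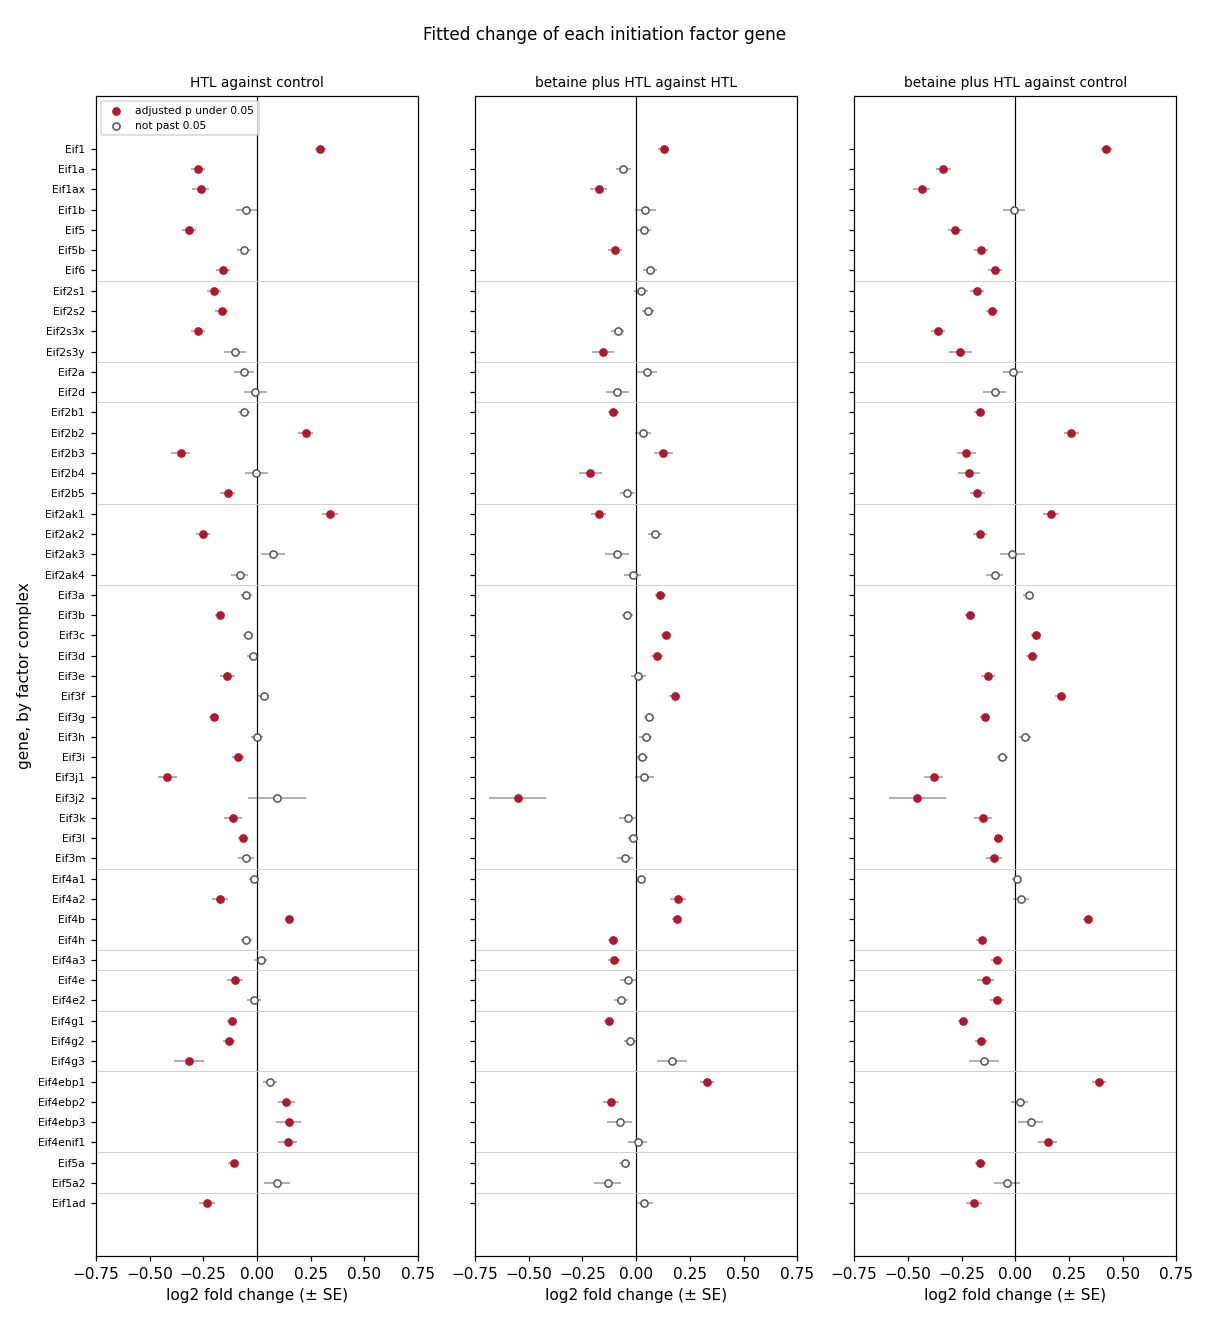
Fitted log2 fold change with its standard error for each tested gene (rows, by complex) in the 3 comparisons; filled points have an adjusted p under 0.05. Left of zero is lower in the first-named group: 24 filled points in HTL against control, 11 in betaine plus HTL against HTL and 30 in betaine plus HTL against control.

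The effect of the pretreatment under HTL is read from betaine plus HTL against HTL. Here 9 of the 53 genes rose, 11 fell and 33 did not pass. The share called, 37.7%, lay near the 35.2% of all genes tested, of which 14.5% rose and 20.6% fell. The median log2 fold change was -0.01, beside -0.02 for all genes. Libraries held separate ranges for 29 of the 53 genes, beside 47.7% of all genes. Rises made up 45% of the calls as reported, 61.9% with quantile normalization and 61.1% with size factors, and for all genes 41.4%, 51.8% and 52.3%. Without HTL replicate 1 only 7 genes fell. This comparison shares its HTL libraries with the one above, so their changes are not independent.

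The largest rise was that of Eif4ebp1 (chromosome 8, 27260327 to 27275656, GRCm38), the main 4E-binding protein and a known target of the stress transcription factor ATF4. It was at 277, 267 and 271 FPKM in the control libraries, 294, 276 and 279 FPKM in the HTL libraries and 342, 364 and 363 FPKM in the betaine plus HTL libraries. Control and HTL libraries overlapped, and every betaine plus HTL library lay above both (log2 fold change 0.33 ± 0.03 SE, adjusted p = 2.65e-05 against HTL, log2 fold change 0.39 ± 0.03 SE, adjusted p = 1.56e-06 against control). In HTL against control Eif4ebp1 did not pass (0.133), except under quantile normalization (0.0147). Eif4ebp2 went down, from 43.4 to 39.9 FPKM (adjusted p = 0.0339), a call lost under both other scalings and without HTL replicate 1 or 2 or betaine plus HTL replicate 1 or 3 (0.0679 to 0.124, with 0.0128 to 0.124 over all settings). Of 14 eIF3 genes 4 rose and 1, Eif3j2, fell, the latter not with every gene tested (no filter, adjusted p = 0.0566). Eif3f was at 135, 135 and 129.9 FPKM in the control libraries, 139, 137 and 133 FPKM in the HTL libraries and 156, 155 and 152 FPKM in the betaine plus HTL libraries, and the betaine plus HTL libraries stood above both other groups (log2 fold change 0.18 ± 0.03 SE, adjusted p = 0.000338). Eif3c went from 262 ± 4.66 to 289 ± 4.15 FPKM (0.000896), Eif3a from 141 ± 3.34 to 152 ± 1.88 FPKM (0.00604) and Eif3d from 222 ± 5.68 to 238 ± 4.69 FPKM (0.0202). The Eif3d call was lost without HTL replicate 2 or 3 or betaine plus HTL replicate 2 or 3 (0.0563 to 0.085). The other rises were Eif1, Eif4b, Eif4a2 and Eif2b3. Among the falls, Eif1ax went from 36.8 ± 1.05 to 32.5 ± 1.54 FPKM (adjusted p = 0.0059), and Eif4g1, Eif4h, Eif2ak1, Eif2b1 and Eif2b4 are given above. Falls of Eif4a3 (0.0183), Eif5b (0.0421) and Eif2s3y (0.0383) were each lost under both other scalings and on leaving out single libraries. For Eif4a3 these were HTL replicate 1 (0.0735) and betaine plus HTL replicate 2 (0.056), for Eif5b control replicate 1, any HTL replicate and betaine plus HTL replicates 1 and 3 (0.0516 to 0.132), and for Eif2s3y any HTL replicate and betaine plus HTL replicates 2 and 3 (0.0615 to 0.113).

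**Figure D5:**
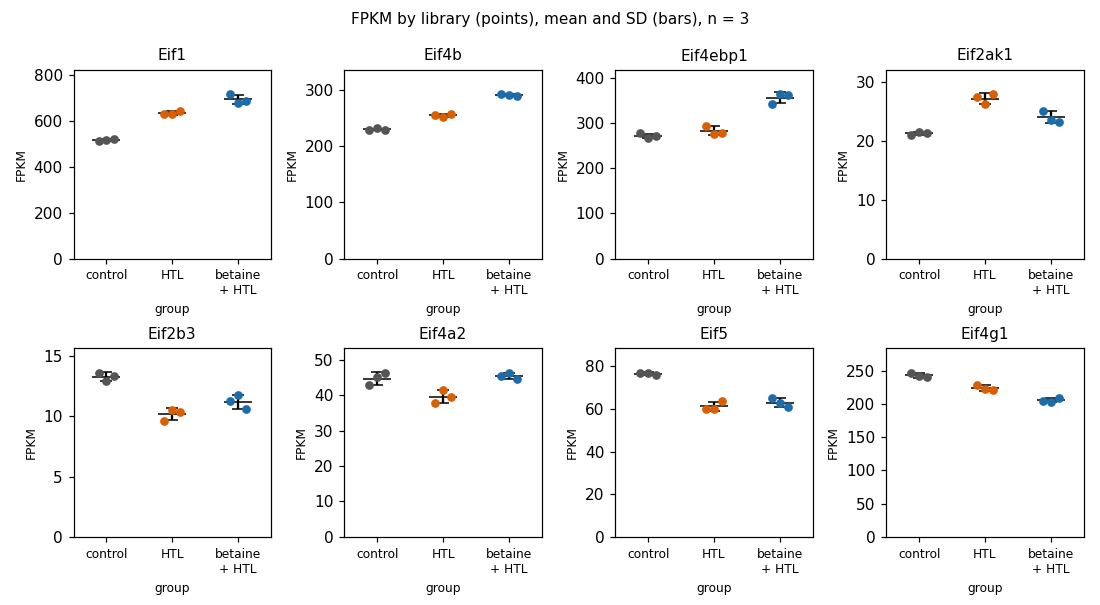
FPKM of 8 initiation factor genes in each library (points), with the mean and SD of 3 libraries (bars), by group. Eif1 and Eif4b step up from control to HTL to betaine plus HTL, Eif4g1 steps down, Eif4ebp1 is highest in betaine plus HTL libraries, and Eif2ak1 is highest in HTL libraries.

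Side by side, the changes in HTL against control and in betaine plus HTL against HTL took several forms. Eif1 and Eif4b rose in both, and Eif1ax and Eif4g1 fell in both. Eif2ak1 and Eif4ebp2 were higher in HTL than in control cells and lower in betaine plus HTL than in HTL cells. Eif2b3 and Eif4a2 went the other way in both. Of these, both calls of Eif2ak1 and of Eif4a2 held in all 17 settings. The rise of Eif2b3 was lost in 12 of them, the rise of Eif4ebp2 under size factors and its fall in 8 of them. Of the 24 genes that fell under HTL, 20 did not pass in betaine plus HTL against HTL, which does not show that they were alike in those groups. In betaine plus HTL against control, which spans both treatments, 9 genes rose, 30 fell and 14 did not pass. The share called, 73.6%, compares with 63.4% of all genes tested, of which 37.7% rose and 25.7% fell. The median log2 fold change was -0.10, beside 0.04 for all genes. Libraries held separate ranges for 41 of the 53 genes, beside 67.1% of all genes. For all genes 59.5% of calls were rises, with 49% under size factors and 52.4% under quantile normalization. Among the 53 genes 23.1% of calls were rises. Size factors gave 6 rises and 34 falls (15% rises), and quantile normalization 12 rises and 26 falls (31.6% rises). All 4 eIF2 subunit genes were lower than in control cells, from -0.36 for Eif2s3x to -0.11 for Eif2s2, though Eif2s2 did not pass under quantile normalization (adjusted p = 0.226). Of the 5 eIF2B genes 4 were lower and Eif2b2 was higher. Of the eIF3 genes 3 were higher (Eif3c, Eif3d and Eif3f) and 8 lower, and under size factors Eif3c and Eif3d did not pass. Of the 8 falls, those of Eif3e (adjusted p = 0.183), Eif3k (0.0929), Eif3l (0.803) and Eif3m (0.527) did not pass under quantile normalization, and that of Eif3j2 did not pass with no filter (0.0637). The falls of Eif4a3 and Eif6 did not pass under quantile normalization or without the trend (highest adjusted p over the settings 0.425 and 0.426). Calls of Eif3d, Eif3m, Eif4a3, Eif4e2 and Eif6 in this comparison were each lost on leaving out single libraries, with adjusted p from 0.0521 to 0.131. Each library named here lost the call when left out alone. For Eif3d they were control replicates 2 and 3 and betaine plus HTL replicates 2 and 3 (0.0694 to 0.127). For Eif3m they were those and control replicate 1 (0.0585 to 0.131). For Eif4a3 they were control replicate 1 and betaine plus HTL replicates 2 and 3 (0.0521 to 0.0983). For Eif4e2 they were control replicates 2 and 3, HTL replicate 3 and betaine plus HTL replicates 1 and 3 (0.0571 to 0.124). For Eif6 they were control replicates 2 and 3 and betaine plus HTL replicate 2 (0.0697 to 0.108).

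Genes that work beside the initiation factors were read from a list of 33 partners, all of them tested. In HTL against control 10 rose and 11 fell, in betaine plus HTL against HTL 9 rose and 8 fell, and in betaine plus HTL against control 12 rose and 11 fell. The shares called were 63.6%, 51.5% and 69.7%, beside 60.3%, 35.2% and 63.4% of all genes tested. Their median log2 fold changes were 0.03, -0.02 and -0.01, beside 0.07, -0.02 and 0.04 for all genes. The partners were read in the reported setting only, and their dependence on the scaling was not tested. Pabpc1, the main poly(A)-binding protein, which eIF4G contacts, fell from 794 ± 36.6 to 634 ± 14.4 FPKM (adjusted p = 1.58e-05) in HTL cells. In betaine plus HTL cells it was at 817 ± 23.7 FPKM, a rise against HTL (adjusted p = 2.37e-05). Pabpc4, its relative, fell from 35.8 ± 0.58 to 25.6 ± 0.15 FPKM (adjusted p = 2.19e-07) and stood at 33.4 ± 1.02 FPKM in betaine plus HTL cells. Pdcd4, an inhibitor of eIF4A, rose from 2.33 ± 0.18 to 4.14 ± 0.10 FPKM (adjusted p = 2.13e-06). In betaine plus HTL cells Pdcd4 was at 4.62 ± 0.22 FPKM, above control (adjusted p = 3.51e-07), and did not pass against HTL (0.0728). The genes of the phosphatase subunits that remove phosphate from eIF2 alpha moved apart. In HTL cells the stress-induced Ppp1r15a rose from 16.2 ± 0.86 to 25.8 ± 0.74 FPKM (adjusted p = 4.9e-06). The constitutive Ppp1r15b fell there from 21.0 ± 0.44 to 15.1 ± 0.51 FPKM (adjusted p = 8.19e-07). In betaine plus HTL cells Ppp1r15b was at 18.7 ± 0.36 FPKM, above HTL (adjusted p = 6.53e-05) and below control cells (0.00162). Ppp1r15a was at 23.4 ± 2.3 FPKM and did not pass against HTL (0.0928). Ddx3x, an RNA helicase of initiation, was lower in betaine plus HTL than in control cells, 148 ± 0.66 to 118 ± 2.92 FPKM (adjusted p = 6.88e-07). HTL cells lay between, at 130 ± 2.17 FPKM (6.76e-05 against control, 0.00122 for betaine plus HTL against HTL). Atf4, whose mRNA is translated when eIF2 is phosphorylated, was higher in betaine plus HTL than in control cells, 496 ± 6.55 to 598 ± 17.8 FPKM (adjusted p = 4.96e-06). HTL cells, at 519 ± 6.55 FPKM, did not pass against control (0.054), and betaine plus HTL cells were above them (0.000167). Mtor, the kinase gene upstream of the binding proteins, was at 7.81 and 8.44 FPKM (adjusted p = 0.0548) in control and HTL cells. In betaine plus HTL cells it was lower, at 7.55 FPKM (adjusted p = 0.0192 against HTL).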

How the data were processed

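Gene levels were FPKM values that the authors deposited, 1 column per library, per the file headers. The submitters' processing notes name HISAT2, HTSeq, fastp and R (version 3.2.0), and mm10 as the build. No source used here gives counting options or strand, so levels of near copies and overlapping genes are uncertain. Members and gene lists were chosen with earlier results of these data known. The genes at or above 0.5 FPKM on average were tested on log2(FPKM + 1), a scale that understates changes of low genes, with limma 3.58.1 in R 4.3.3 (group means, intensity trend, 6 residual degrees of freedom, two-sided, Benjamini-Hochberg adjustment over all genes of a comparison, threshold 0.05). With 3 libraries against 3, exact permutation gives no p below 0.1 for 1 gene. Whether replicate libraries are separate cultures is not stated, and the p-values then reflect just the library-to-library spread, possibly technical. Library totals were inferred so that genes had whole reads (within 0.05) in every library, which 13949 of the 13953 genes above 0 in all 9 libraries did. A gene's length was the shortest that did so with at least 1 read wherever its value was above 0. Genes above 0 in few libraries test this weakly. Depths from 33305472 to 39464509 reads limit the precision of low genes. Positions were matched by Entrez identifier to RefSeq for all 64 genes. Named genes were the 8 largest called changes per comparison, the kinases, eIF2B subunits, binding proteins and Eif2s1, Eif4e, Eif4g1 and Eif4a1, and of the partners the 3 with the smallest p per comparison and Atf4, Ppp1r15a, Mtor and Pabpc1. Others were named after their values were seen. Alternatives were another pseudocount (0.1), filter (none, 5 FPKM) or scaling (quantile, size factors), a fit without the trend, on 2 groups or with a replicate block, and leaving out each library.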

Additional observations from a re-analysis of the deposited data

How the results depend on the processing

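Each comparison was refitted under 17 alternative settings. Counts of initiation factor genes called stayed within 1.5 times the reported ones except that size factors gave 4 rises in HTL against control (7 as reported) and 7 falls in betaine plus HTL against HTL (11), and that leaving out 1 library gave 7 to 11 falls in the latter, the lowest without HTL replicate 1. Eif4a1 in HTL against control turned to 0.12 under quantile normalization (adjusted p = 0.000365, and 0.000365 to 0.772 over the settings). Of 31, 20 and 39 genes called in HTL against control, betaine plus HTL against HTL and betaine plus HTL against control, 22, 13 and 27 were called in every setting that tested them. Libraries with the same replicate number did not deviate together (r from -0.073 to 0.059), so they were not treated as pairs. With a replicate block 30, 17 and 38 genes were called. The cause of these differences was not tested. The size factors scaled HTL libraries down most, and the median of all genes in HTL against control went from 0.07 to 0.0045.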

Other observations

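Elongation and termination factor genes, a list read beside the initiation factors, changed as follows. Of 14 tested of 15 listed, 10 fell and none rose in HTL against control, 6 rose and none fell in betaine plus HTL against HTL, and 2 rose and 9 fell in betaine plus HTL against control, with median log2 fold changes of -0.15, 0.06 and -0.14, beside 0.07, -0.02 and 0.04 for all genes tested. Among all genes 39.8% rose and 20.4% fell in the first of these comparisons, 14.5% and 20.6% in the second, and 37.7% and 25.7% in the third. The shares called were 71.4%, 42.9% and 78.6%, beside 60.3%, 35.2% and 63.4% of all genes. This list was read in the reported setting only, and its dependence on the scaling was not tested. The examples were chosen after their values were seen. Eef2, which moves the ribosome along the mRNA, was at 1195 ± 22.1, 1139 ± 7.71 and 1335 ± 29.7 FPKM in control, HTL and betaine plus HTL cells (SD, n = 3 each), and Eef1g, of the factor that recharges eEF1A, at 577 ± 9.65, 457 ± 4.71 and 507 ± 9.27 FPKM.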
